A study of Bos taurus with 38 samples.

Results

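RNF121, PSME4, SQSTM1 and HSPA1A are 4 genes that take damaged or surplus proteins in hand, and their transcripts were followed here in cattle oocytes and in the cumulus cells around them. They were chosen by name, out of 27607 identifiers in the count tables, with earlier results of these data known: the difference of RNF121 between classes in cumulus cells was used, and those of HSPA1A in cumulus cells and of PSME4 in oocytes, and the co-expression of oocyte and cumulus genes, may have been. All 4 passed the filter on low counts in every comparison. The study aspirated cumulus-oocyte complexes from antral follicles of cattle (Bos taurus) ovaries collected at an abattoir, stained each complex with brilliant cresyl blue (BCB), and sequenced the oocyte and its own cumulus cells apart. A blue ooplasm (BCB positive) is taken as a sign that the oocyte has finished growing, since a growing oocyte turns the dye colorless (BCB negative). There were 9 BCB positive and 10 BCB negative complexes, each giving 1 oocyte library and 1 cumulus library, 38 libraries in all. No complex was treated otherwise, the sources used here do not tie complexes to animals, and a complex stands for 1 follicle, so the spread between complexes is what the tests below rest on. In bulk cumulus cells, fewer cells of a type and less RNA per cell cannot be told apart.

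Cells dispose of faulty proteins by several routes. RNF121 is a ubiquitin ligase of the endoplasmic reticulum and Golgi membranes that marks misfolded proteins for destruction. PSME4 (also called PA200) caps the proteasome, the cell's protein-degrading barrel, and opens it without need of ubiquitin. SQSTM1 (p62) binds ubiquitin-tagged cargo and ties it to the growing autophagosome, and it also binds KEAP1, the keeper of the NRF2 stress response. HSPA1A is the classic stress-inducible HSP70, a chaperone that refolds proteins after heat or other insults and is switched on by the heat shock factor HSF1. An oocyte builds up a store of maternal transcripts during growth, whereas cumulus cells go on transcribing, so that the level of a transcript in the oocyte is that of a store.

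The identifiers were ENSBTAG00000014167 (RNF121), ENSBTAG00000020262 (PSME4), ENSBTAG00000015591 (SQSTM1) and ENSBTAG00000025441 (HSPA1A). HSPA1A has near-identical relatives, and the sources used here do not say how reads that match more than 1 gene were counted. Its values may therefore include reads of a relative or miss reads of its own. Complex numbers fell in 3 runs: 6 to 24 (3 BCB positive, 1 BCB negative), 65 to 74 (6 and 3) and 86 to 91 (6, all BCB negative), and the labels do not say what the numbers stand for. Oocyte libraries held between 8886070 and 29810354 counts, and cumulus libraries 3585944 to 10430148 in BCB positive and 1103200 to 8013318 in BCB negative complexes. Mitochondrially encoded genes took 1.66% ± 0.70 (SD, n = 9) of the counts in BCB positive and 8.24% ± 5.01 (n = 10) in BCB negative cumulus libraries. Of the fixed marker genes, 3 of 9 for oocytes, 9 of 11 for cumulus cells and 1 of 7 for other cells had a name. Compartment markers matched the labels: ZP2 and ZP3, which form the egg coat, had at least 1261 CPM (counts scaled to an equal library total) in every oocyte and at most 48.0 in any cumulus library. The summed CPM of 9 cumulus markers was 9.68 to 1755.5 in oocytes and 782.1 to 19383 in cumulus cells, and VWF, an endothelial gene, was at 15.0 to 82.9 CPM in oocytes and at 0.46 to 16.3 in cumulus cells. Levels below are CPM scaled by trimmed mean of M-values (TMM) within each compartment, and comparisons between compartments used TMM factors over all 38 libraries. Gene lengths were not used, so that levels are compared between libraries and never between genes.

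**Figure D1:**
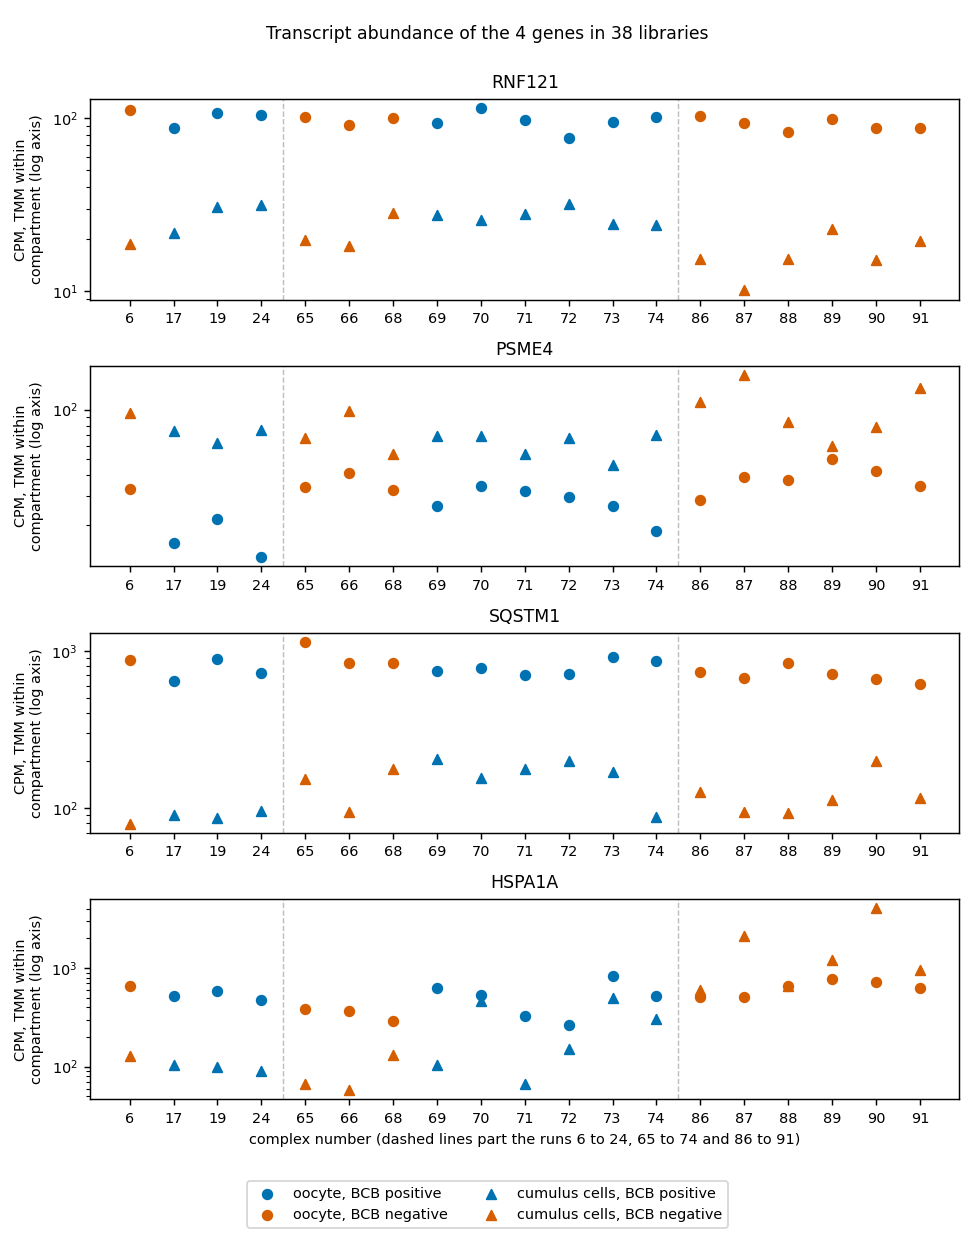
Transcript abundance of RNF121, PSME4, SQSTM1 and HSPA1A (CPM, TMM within compartment, log axis) in each of the 38 libraries, by complex number. Circles are oocytes, triangles cumulus cells, and color gives the BCB class. RNF121 and SQSTM1 are higher in every oocyte than in its own cumulus cells and PSME4 is lower, and the cumulus level of HSPA1A in complexes 86 to 91 lies above that of every other complex.

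Oocytes held more RNF121 and SQSTM1 and less PSME4 than their cumulus cells, whereas HSPA1A had no single direction. RNF121 was at 77.1 to 114.0 CPM in oocytes (median 97.8, n = 19) and at 10.1 to 31.7 in cumulus cells (median 22.8), and its level rose 3.19-fold from cumulus cells to oocytes (log2 fold change 1.67 ± 0.08 SE, edgeR FDR 1.84e-21). SQSTM1 was at 614.7 to 1144.7 CPM in oocytes (median 743.1) and at 79.7 to 206.6 in cumulus cells (median 116.1), a 4.29-fold difference (log2 95% interval 1.85 to 2.35, FDR 8.13e-19). PSME4 went the other way, with 12.7 to 50.0 CPM in oocytes (median 32.4) against 45.9 to 162.4 in cumulus cells (median 70.03), and its oocyte level was lower by a log2 fold change of -1.84 ± 0.13 (FDR 1.49e-16). The ranges of RNF121 and SQSTM1 in the compartments did not overlap, and those of PSME4 overlapped only between the highest oocyte and the lowest cumulus library.

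The same directions held in each complex taken on its own. In 19 of 19 complexes the oocyte had more RNF121 and more SQSTM1 than its cumulus cells, and in 19 of 19 it had less PSME4. The difference within a complex spanned 0.93 to 2.73 for RNF121, 1.26 to 3.04 for SQSTM1 and -2.88 to -0.64 for PSME4, in log2(CPM + 1) with factors over all libraries. Scaled by library totals alone, 1 complex had more PSME4 in the oocyte. Differences between oocyte and cumulus cells were the rule in these data: of 14898 genes tested, 13172 (88.4%) passed an FDR of 0.01, 46.2% higher and 42.2% lower in oocytes. The calls of RNF121, SQSTM1 and PSME4 are therefore like those of most genes, and what describes them is their direction and size.

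HSPA1A was at 264.7 to 830.2 CPM in oocytes (median 521.3) and spread from 57.5 to 4041.0 in cumulus cells (median 151.6). The oocyte level lay within the cumulus range, and the difference of -0.23 ± 0.38 (95% interval -0.97 to 0.51) did not pass the test (FDR 0.561). In BCB positive complexes alone the log2 difference was 0.82 ± 0.38, and in BCB negative complexes alone it was -1.37 ± 0.62. Both are descriptions, since the class difference of HSPA1A in cumulus cells may have led to its choice. With each complex as a block, over all 19 complexes, the difference between compartments was 0.52 ± 0.36 (FDR 0.183). With factors over all libraries, the oocyte had the higher level in 12 of the 13 complexes numbered below 86 and in 0 of the 6 complexes from 86 to 91. With TMM within compartments it was higher in 13 complexes of 19.

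The wider set of protein quality control genes went both ways between the compartments. Of 146 genes in 11 lists, 62 could be tied to an identifier, since names came only from the study's supplementary tables, the largest of them shortened in the copies used here. Of these, 21 were higher and 32 lower in oocytes, and 9 did not pass, which makes 85.5% called against 87.1% among all genes with a name (42.8% higher and 44.4% lower). Their median log2 difference was -0.39, against 0.14 over all genes and -0.05 over named genes. Scaling by library totals alone moved the median of all genes by 0.40 and that of the list genes to 0.027, and 9 list genes changed sign.

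Proteasome genes were mostly lower in oocytes. Of 21 proteasome genes, 15 fell, 4 rose and 2 did not pass, with a median of -0.91 (-0.49 when scaled by library totals alone, where 4 changed sign). PSME2, a subunit of the interferon-inducible cap that competes with PSME4 for the same barrel, differed by -3.16 ± 0.14, and PSMB9, an immunoproteasome subunit, by -2.70 ± 0.23. PSMB6 (-1.71 ± 0.10) and PSMC5 (-1.51 ± 0.08), a catalytic subunit of the standard core and an ATPase of the regulatory cap, were lower too. PSME3IP1, which binds the cap protein PSME3, was higher by 2.95 ± 0.08, and ADRM1, a ubiquitin receptor of the proteasome, by 1.51 ± 0.09. PSME1 and PSME3 themselves were not analysed here.

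Autophagy genes went both ways between the compartments. Of 4 cargo receptors 2 rose and 2 did not pass. NBR1, which like SQSTM1 carries ubiquitin-tagged cargo, rose by 2.01 ± 0.08 in oocytes (edgeR FDR 3.18e-24), which is 4.02-fold beside 4.29-fold for SQSTM1, and TOLLIP, another receptor, rose by 1.29 ± 0.09. CALCOCO2 was at -0.10 ± 0.11 and WDFY3 at 0.23 ± 0.12, and neither passed. Of 7 machinery genes 2 rose (ATG16L1, 1.36 ± 0.12, and ATG9A, 0.32 ± 0.11) and 5 fell, with GABARAPL1 (-4.19 ± 0.21) and GABARAP (-2.87 ± 0.10), whose products coat the autophagosome and are what the receptors bind, the lowest. KEAP1, the partner of SQSTM1 in the NRF2 pathway, fell by 1.14 on the log2 scale, and HMOX1, an NRF2 target, had -5.83 ± 0.41.

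Genes that work beside RNF121 in the endoplasmic reticulum went both ways. Of 7 degradation genes 4 rose and 3 fell. DERL2, a channel component for export of misfolded proteins, was higher in oocytes by 2.42 ± 0.11, and NPLOC4, which helps to pull them out, by 1.45 ± 0.09. HERPUD1, induced when the reticulum is stressed, had -5.10 ± 0.27, and OS9, a lectin that picks glycoproteins for removal, had -3.12 ± 0.13. In the unfolded protein response the sensor ERN1 was higher by 3.59 ± 0.21 and the chaperone CALR lower, at -2.62 ± 0.13.

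The relatives of HSPA1A were as divided. HSPA5 (BiP), the HSP70 of the endoplasmic reticulum, was lower in oocytes by -4.53 ± 0.23, while HSPA4L, a family member of the HSP110 type, was higher by 3.61 ± 0.15 and HSPA2, known from germ cells, by 3.22 ± 0.18. HSPBP1, a release factor of HSP70, rose by 2.08 ± 0.10, DNAJB4, a cofactor of HSP70, by 1.62 ± 0.14, and HSF1, the heat shock factor, by 1.57 ± 0.09. HSPB1, a small heat shock protein, had -5.92 ± 0.49. The inducible partners HSPH1 (-0.17 ± 0.23), DNAJB1 (-0.0024 ± 0.26) and BAG3 (-0.22 ± 0.20) did not pass, as HSPA1A did not.

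**Figure D2:**
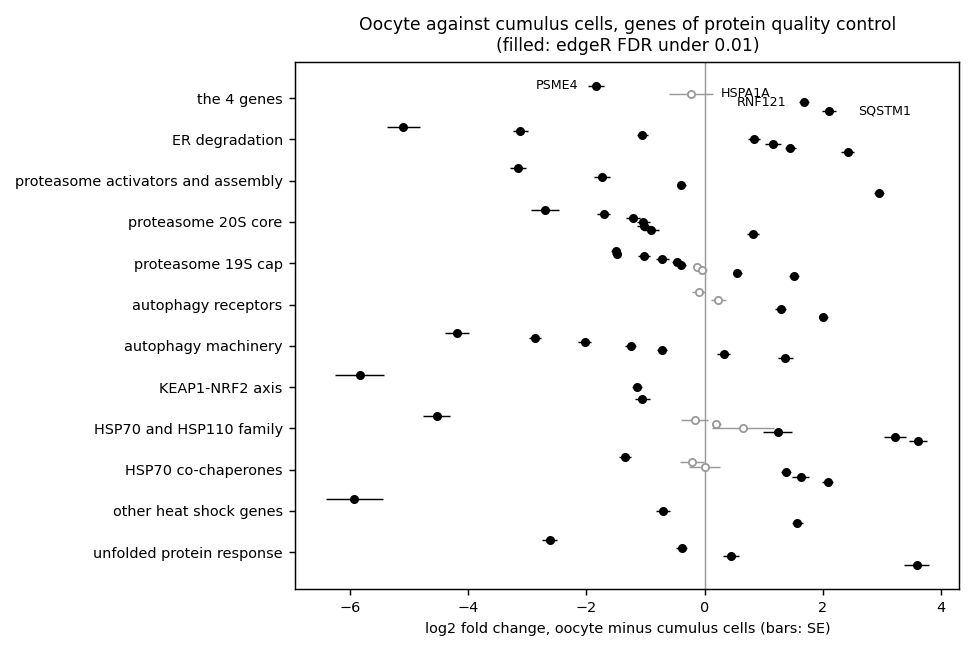
Log2 fold change between oocytes and cumulus cells (oocyte minus cumulus, bars are SE) for the 4 genes and for 62 genes of 11 lists; filled points passed an edgeR FDR of 0.01. RNF121 (1.67) and SQSTM1 (4.29-fold) lie to the right, PSME4 (-1.84) to the left and HSPA1A (-0.23) at the middle, and 17 of the 21 proteasome genes lie to the left, 15 of them past the threshold.

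In oocytes PSME4 was lower in the BCB positive class, a difference that may have entered its choice, and RNF121, SQSTM1 and HSPA1A were tested without a call. PSME4 was at 12.7 to 34.4 CPM in BCB positive oocytes (median 25.9, n = 9) and at 28.2 to 50.0 in BCB negative oocytes (median 35.7, n = 10). The ranges overlapped, the lowest BCB positive oocytes being those of complexes 24, 17 and 74 (12.7, 15.5 and 18.4 CPM). The log2 fold change, positive minus negative, was -0.62 ± 0.16, given as a description only, and within complexes 65 to 74 it was -0.35 ± 0.19. RNF121 (medians 97.8 and 96.1 CPM), SQSTM1 (743.1 and 782.2) and HSPA1A (521.3 and 571.5) overlapped almost whole between the classes. The differences were 0.03 ± 0.08 for RNF121 (95% interval -0.13 to 0.19), -0.03 ± 0.10 for SQSTM1 (-0.24 to 0.17) and -0.09 ± 0.20 for HSPA1A (-0.47 to 0.30), and none passed. The interval of HSPA1A holds for the fit without the run: its difference was 0.30 with the run in the model and 0.59 ± 0.32 within complexes 65 to 74, where neither passed. With edgeR, 0 of 12753 oocyte genes (0%) passed an FDR of 0.01, 711 had an unadjusted p under 0.05, and DESeq2 called 1. None of the 62 list genes passed, and their median was 0.07.

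In cumulus cells the class difference of RNF121 led to its choice and that of HSPA1A may have, so both are described and not tested. RNF121 was at 21.8 to 31.7 CPM in BCB positive (median 27.7, n = 9) and at 10.1 to 28.4 in BCB negative cumulus cells (median 18.6, n = 10). The higher end of the BCB negative range (complex 68 at 28.4 and complex 89 at 22.8) reached into the BCB positive range. The log2 fold change was 0.61 ± 0.16, and it was 1.09 ± 0.18 when scaled by library totals alone, a scaling that moved the median of all cumulus genes by 0.47 in the same direction. Within complexes 65 to 74 it was 0.30 ± 0.22, and without complexes 86 to 91 0.36 ± 0.19. Counts behind RNF121 in BCB negative cumulus libraries were as low as 17, and 17 to 27 in the 4 libraries of complexes numbered below 86, whereas those of BCB positive libraries were 85 to 365. In the oocytes of the same complexes, the log2 fold change of RNF121 was 0.03, and the class difference in oocytes minus that in cumulus cells was -0.61 ± 0.16, or -0.63 ± 0.17 when each complex was a block. These too are descriptions. The cumulus libraries of the classes also differed in marker levels: the 9 cumulus markers summed to 5646 to 19383 CPM in BCB positive (median 8835) and 782.1 to 8123 in BCB negative libraries (median 5098), and the 3 oocyte markers to 0.11 to 1.82 (median 0.55) and 0.66 to 66.5 CPM (median 4.68). The part of these markers in the class differences was not tested. For that difference of differences, without the block, 258 of 14898 genes (1.73%) passed, 1.68% higher and 0.047% lower, and among named genes 1.89% passed (1.77% higher and 0.122% lower). With the block 2 genes passed, and with library totals alone 643 did, 222 higher and 421 lower.

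HSPA1A was at 66.8 to 497.0 CPM in BCB positive cumulus cells (median 104.8) and at 57.5 to 4041.0 in BCB negative ones (median 633.5). The log2 fold change of -2.26 ± 0.74 turned to 1.09 ± 0.58 once complexes 86 to 91 were left out, to 0.97 ± 0.63 with the run in the model and to 1.65 ± 0.71 within complexes 65 to 74. In that run the BCB positive cumulus cells had 104.8, 465.6, 66.8, 151.6, 497.0 and 304.2 CPM (complexes 69 to 74) and the BCB negative ones 66.6, 57.5 and 132.2 (complexes 65, 66 and 68). The direction between the classes thus came from the 6 complexes numbered 86 to 91, where class and run cannot be told apart.

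SQSTM1 and PSME4 were tested between the classes in cumulus cells, and neither passed. SQSTM1 was at 87.3 to 206.6 CPM in BCB positive (median 156.6) and 79.7 to 200.7 in BCB negative cumulus cells (median 114.1), with a log2 fold change of 0.18 ± 0.21 (95% interval -0.23 to 0.59, FDR 0.679). PSME4 was at 45.9 to 74.8 CPM (median 69.2) and 53.5 to 162.4 (median 89.7), a log2 fold change of -0.54 ± 0.18 (FDR 0.0961) that was -0.05 ± 0.21 when scaled by library totals alone. On the TMM scale 7 of 10 BCB negative libraries lay above every BCB positive library for PSME4. In this comparison 69 of 12313 genes (0.56%) passed, 64 of them (0.52%) lower and 5 (0.0406%) higher in BCB positive cells, and 0.957% of the genes with a name passed. The count and its direction turned with the scaling: library totals alone gave 1704 calls, 103 lower and 1601 higher, whereas 2 genes, both lower, passed with the library total in the model.

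**Figure D3:**
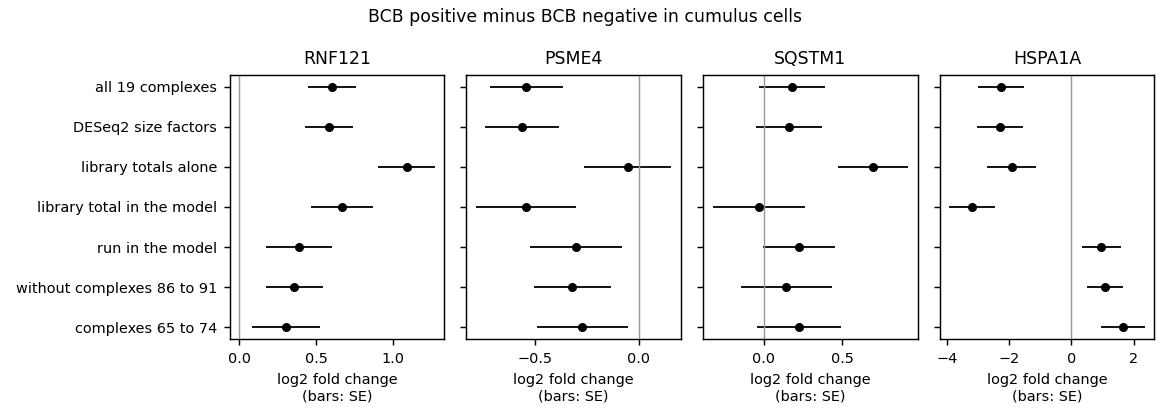
Log2 fold change between BCB positive and BCB negative cumulus cells (bars are SE) of each gene under 7 ways of fitting it; each panel has its own scale. RNF121 stays above 0 in all 7, and HSPA1A lies at -2.26 with all 19 complexes but above 0 once complexes 86 to 91 are left out or the run is in the model.

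With edgeR and TMM, 0 of the 62 list genes passed between classes in cumulus cells and 20 had an unadjusted p under 0.05. DESeq2 called 3 of them (NBR1, HSPH1 and HSPA6, 4.84%), beside 204 of 4492 named genes (4.54%) and 365 of all 12313 (2.96%). Library totals alone gave 29 (46.8%), beside 1529 named genes (34%) and 1704 of all genes (13.8%). Which genes have a name here depends on this same comparison, because the copies of the largest supplementary tables used here were shortened to the genes lowest in p-value between the classes, so the counts that follow are a description. All 21 proteasome genes had a positive log2 fold change, with a median of 0.28, against -0.01 over all genes tested and 0.14 over those with a name. Of the 21, 7 had an unadjusted p under 0.05, as did 1402 of the 4492 named genes, so that this share is near the background. Scaled by library totals alone, the proteasome median was 0.77 and 17 of 21 were called, but the median of all genes then stood at 0.46 and that of the named genes at 0.61, and 34% of named genes were called. PSMC4 had 0.41 ± 0.17 and PSME2 0.28 ± 0.14. NBR1, the receptor next to SQSTM1, had -0.54 ± 0.13 (edgeR FDR 0.0258, DESeq2 FDR 0.000587). The unfolded protein response genes had a median of -0.23, with 0 of 4 positive, though all 4 turned positive when scaled by library totals alone (median 0.27), and HSPA5 was at -0.11 ± 0.32. Of the genes induced with HSPA1A, HSPH1 had -1.70 ± 0.46 (edgeR FDR 0.0504, DESeq2 FDR 0.00164), DNAJB1 -1.60 ± 0.52 (FDR 0.101), HSPA6 -4.11 ± 1.06 (a description, since it missed the filter without complexes 86 to 91) and BAG3 -0.49 ± 0.36, where a negative value is a lower level in BCB positive cells. These differences went with complexes 86 to 91, all BCB negative: without them HSPH1 had -0.23 ± 0.28, DNAJB1 -0.03 ± 0.46 and BAG3 0.38 ± 0.43. HSPA6 was at 0 CPM in 3 of the 4 BCB negative cumulus libraries before complex 86 and at 1.73 in the other, against 1.08 to 20.3 in BCB positive libraries, and with the run in the model it was 2.97 ± 2.47, the reverse direction.

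Within the BCB negative class, the 6 complexes numbered 86 to 91 were compared with the 4 numbered 6 to 68. In cumulus cells HSPA1A was at 129.0, 66.6, 57.5 and 132.2 CPM in complexes 6, 65, 66 and 68, and at 604.7, 2118.9, 662.4, 1202.1, 4041.0 and 960.0 in complexes 86 to 91. Every late library lay above every earlier one. The difference was 4.10 ± 0.63 on the log2 scale, or 17.1-fold, and 3.56 without complex 90, the highest. These libraries are among those behind the class difference and the co-expression that may have led to the choice of HSPA1A, so its values are a description with no test. With edgeR, 0 of 12604 genes (0%) passed and 662 had an unadjusted p under 0.05. DESeq2 called 6 genes in all, HSPA1A and HSPA6 among them. The call of HSPA1A is not read as a test, since these libraries may have led to its choice. Most of the other calls are not either, since those genes passed the filter wholly or mainly through the group where they were high. HSPA6 was above 2 CPM in late libraries alone, and the unnamed ENSBTAG00000006965 in earlier libraries alone. ZP3, an egg coat gene, was above 2 CPM in 3 of 4 earlier and 1 of 6 late libraries, and the unnamed ENSBTAG00000004658 in 4 of 4 and 1 of 6. The unnamed ENSBTAG00000022917, lower in the late libraries, was above it in all 10.

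Other heat shock genes were then read in the same cumulus libraries. HSPA6 is a description there, and the rest passed with neither tool. HSPA6, an HSP70 gene induced only by strong stress, had 0, 2, 0 and 0 counts in the 4 earlier libraries and 226, 188, 11, 298, 1417 and 122 counts in complexes 86 to 91. It was above the filter's 2 CPM in 6 of 6 late and 0 of 4 earlier libraries, so that it entered the comparison only through the group where it was high. HSPH1, the HSP110 partner of HSPA1A, was at 155.8, 83.0, 92.0 and 123.8 CPM in the earlier libraries and 127.1 to 1329.3 in the late ones, with a log2 difference of 2.05 ± 0.59 (edgeR FDR 0.839, DESeq2 FDR 0.0745), and complex 88 of the late run lay below complex 6. DNAJB1, which delivers clients to HSP70, was at 58.2 to 207.5 CPM against 178.0 to 1470.6, a difference of 2.15 ± 0.59 (edgeR FDR 0.839, DESeq2 FDR 0.0534). BAG3, which releases clients from HSP70 toward autophagy, was at 16.2 to 70.3 against 40.1 to 160.9 CPM, a difference of 1.29 ± 0.44 (edgeR FDR 0.881, DESeq2 FDR 0.435). Complex 90 was the highest and complex 88 among the lowest late libraries for these genes. HSPA5, which answers stress of the endoplasmic reticulum, had -0.18 ± 0.47, the heat shock factor HSF1 0.04 ± 0.26 and HSPA4, a constitutive relative, 0.15 ± 0.25. HSPB1 had 0.04 ± 0.34, DNAJB4 0.15 ± 0.39 and HSP90AA1, an inducible HSP90, 0.28 ± 0.38.

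**Figure D4:**
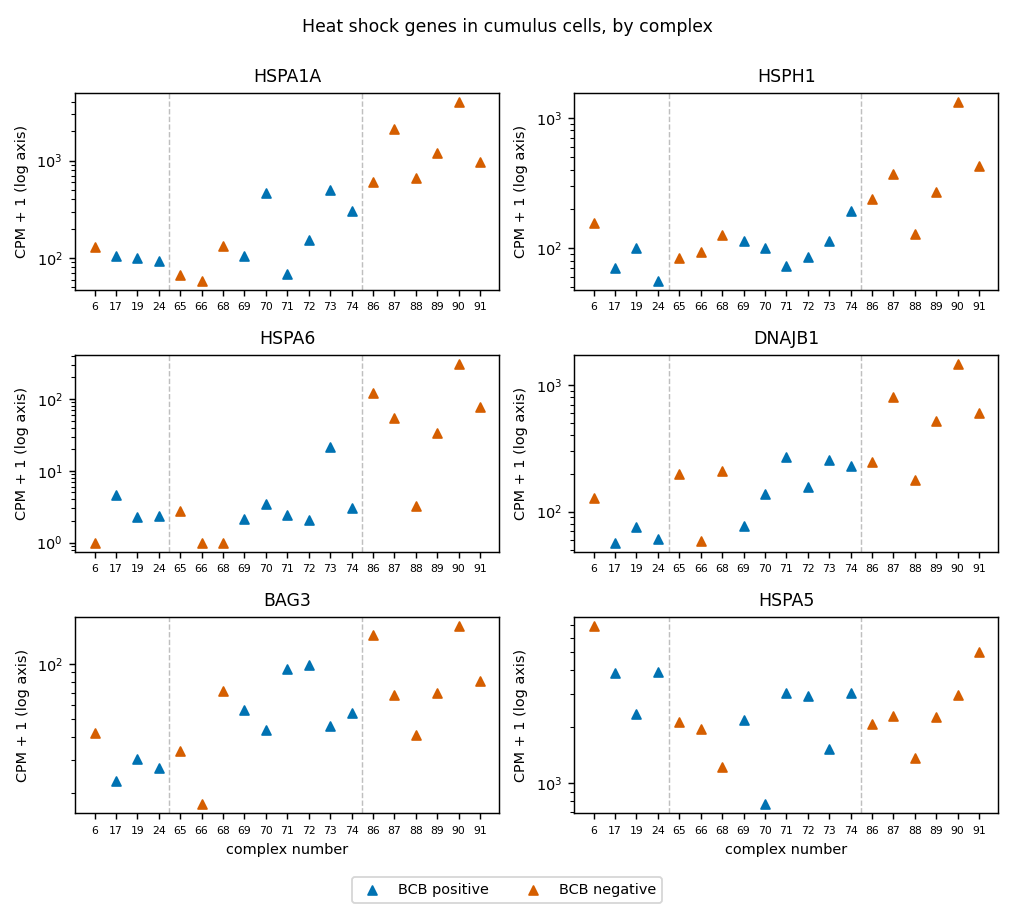
HSPA1A, HSPH1, HSPA6, DNAJB1, BAG3 and HSPA5 in the 19 cumulus libraries (CPM + 1, TMM within compartment, log axis) by complex number, with color for the BCB class. HSPA1A, HSPH1, HSPA6, DNAJB1 and BAG3 are highest in complex 90, and HSPA5 in complexes 86 to 91 lies within the range of the other complexes.

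Other features of the cumulus libraries moved with the run, and their part in the HSPA1A difference was not tested. Totals were 2164674 to 8013318 counts in the 6 late and 1103200 to 1772144 in the 4 earlier BCB negative cumulus libraries, without overlap. With the library total in the model, the HSPA1A difference was 3.35 ± 0.92. The mitochondrial share was 1.17 to 13.5% (late) and 6.52 to 17.4% (earlier). The 9 cumulus markers summed to 1809.9 to 8123 CPM and 782.1 to 6871 CPM, and the 3 oocyte markers to 0.66 to 6.47 and 3.39 to 66.5 CPM. For the other 3 of the 4 genes in cumulus cells, the late minus earlier difference was -0.32 ± 0.30 for RNF121, 0.42 ± 0.30 for PSME4 and 0.02 ± 0.29 for SQSTM1. That of RNF121 is a description, since these libraries are among those behind the class difference that led to its choice. PSME4 and SQSTM1 did not pass (exact permutation p = 0.276 and 0.990). These two-sided tests over the 210 ways to part the 10 libraries belong to 8 computed for the 4 genes in both compartments, unadjusted, and the smallest p they can give is 0.00952.

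In the oocytes of the same complexes the run went with a smaller difference in HSPA1A and with one in SQSTM1. HSPA1A was at 656.4, 386.7, 366.3 and 288.8 CPM in the oocytes of complexes 6, 65, 66 and 68 and at 511.0 to 780.5 in those of 86 to 91. Only complex 6 reached into the late range. The difference was 0.58 ± 0.20 (edgeR FDR 0.105, exact permutation p = 0.0476). Without complex 6 it was 0.87 ± 0.15 (edgeR FDR 0.00829), which is not read as a test, since that complex is the one that overlapped. With the library total in the model the HSPA1A difference was -0.02 ± 0.33, oocyte totals being 9389803 to 16345963 in the earlier and 19195112 to 29810354 in the late libraries, without overlap. The 9 cumulus markers summed to 18.7 to 319.1 CPM in the late oocytes (median 31.1) and 9.68 to 21.0 in the earlier ones (median 16.1), and the 3 oocyte markers to 2767 to 3711 (median 3083) and 3610 to 4576 CPM (median 4158), and their part in these differences was not tested. SQSTM1 was at 871.9, 1144.7, 836.0 and 837.5 CPM in the earlier oocytes and at 614.7 to 831.6 in the late ones, which did not overlap. Its difference of -0.39 ± 0.11 missed the threshold (FDR 0.0661), and its exact permutation p was 0.00952. Of the other heat shock genes compared in the same way, HSP90AA1 and HSPA4 also fell without overlap (mean log2 differences -0.30 and -0.21), and the rest overlapped. Differences between the runs were common here: 3250 of 12988 genes had an unadjusted edgeR p under 0.05. Library totals, also without overlap, went with SQSTM1 over all 19 oocytes (r of -0.55), and the cause of its difference was not tested. RNF121 (-0.13 ± 0.10) did not pass. PSME4 had 0.13 ± 0.16, a description, since these oocytes are among those behind the class difference that may have led to its choice. With edgeR 6 of 12988 genes (0.0462%) passed in this comparison, 0.0154% higher and 0.0308% lower, and of the genes with a name 0.0869% did, 0.0434% higher and 0.0434% lower. That count rests on single libraries and on the tool: it was 259 without complex 6, 20 without complex 87 and 0 without any 1 of the others, and DESeq2 called 621.

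With edgeR, 0 of 61 list genes passed between late and earlier oocytes, and 17 had an unadjusted p under 0.05, beside 1212 of the 4604 named genes. DESeq2 called 10 of the list genes (16.4%), beside 248 of the named genes (5.39%), and without complex 6 edgeR called 3 (4.92%), beside 1.55% of the named genes. Of the 10 genes of the 19S cap, the part of the proteasome that accepts ubiquitin-tagged proteins, 0 were positive. Their median was -0.20, against 0.02 over all genes and 0.07 over named genes, and 2 of them changed sign when scaled by library totals alone. Of the 10, 3 had an unadjusted p under 0.05, near the share among named genes. The 7 genes of the 20S core had a median of -0.40, with 2 positive, and the 4 activator and assembly genes -0.27, with 0 positive. ERN1 had 1.07 ± 0.20 and DERL2 -0.68 ± 0.13 (edgeR FDR 0.0258 for both), which passed with DESeq2 only (FDR 3.6e-05 and 0.000163). HSPH1 had -0.08 ± 0.13 and DNAJB1 -0.06 ± 0.11 in oocytes, and neither passed.

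The level of a gene in the oocyte was then set against that in its own cumulus cells over the 19 complexes. Since co-expression of oocyte and cumulus genes may have entered the choice of the 4, these relations are descriptions with no test. Pearson's r of log2(CPM + 1) was 0.19 for RNF121 (Spearman's rho 0.26), 0.21 for PSME4 (rho 0.24) and -0.07 for SQSTM1 (rho -0.24). HSPA1A fell into separate sets by run in cumulus cells, so its relation was read within runs. Within complexes 65 to 74 r was 0.60 (rho 0.42, n = 9), and within 86 to 91 r was 0.29 (rho 0.49, n = 6). PSME4 had r of -0.49 within BCB positive complexes (rho -0.70, n = 9) and 0.31 within complexes 65 to 74 (rho 0.07, n = 9). Without the 2 complexes farthest from the median, r was 0.36, 0.28 and -0.33 for RNF121, PSME4 and SQSTM1.

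**Figure D5:**
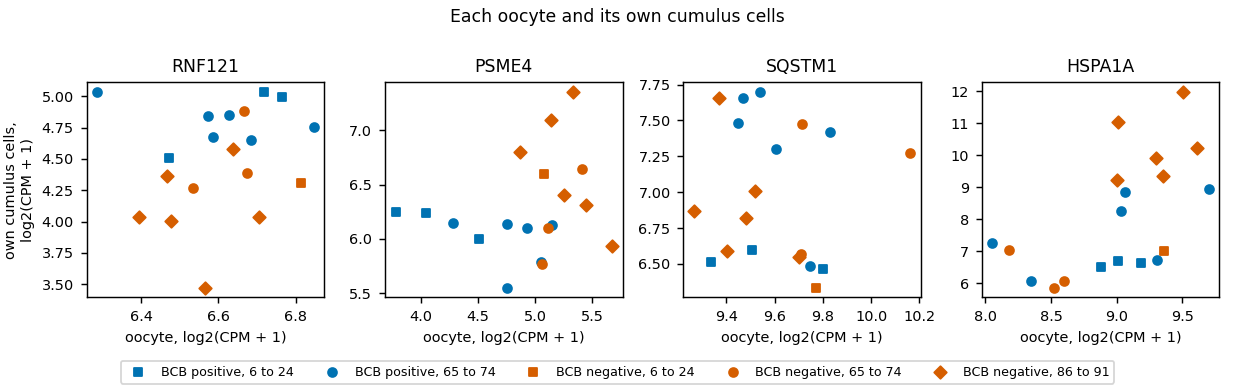
Each oocyte's level (horizontal, log2(CPM + 1)) against that of its own cumulus cells (vertical) for the 4 genes in 19 complexes; color gives the BCB class and shape the run of complex numbers. HSPA1A of complexes 86 to 91 (diamonds) lies above the rest, and RNF121, PSME4 and SQSTM1 show r of 0.19, 0.21 and -0.07.

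Depth was weighed against the 4 genes in 8 relations. Over all 19 complexes the relation largest in size was that of SQSTM1 in oocytes, with r of -0.55 to the log10 library total (rho -0.60, permutation p = 0.0129 and 0.00762), which missed the threshold after adjustment (0.103 and 0.061). It was -0.45 within complexes 65 to 74 (exact permutation p = 0.227), -0.35 within 86 to 91 (exact permutation p = 0.504) and -0.53 without the 2 farthest libraries. In cumulus cells both RNF121 and the library total differed between the classes, so its relation is a description with no test. Its r was 0.34 over all complexes, 0.32 in the BCB positive class, -0.39 in the BCB negative class and 0.58 within complexes 65 to 74, and 0.71 over all complexes when scaled by library totals alone. SQSTM1 in cumulus cells went from 0.29 (adjusted permutation p = 0.360) to 0.77 by the same change of scaling. The second value is a description too. That scaling moved the median class difference of all cumulus genes by 0.47, and the library total differed between the classes.

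The spread of each gene over the 19 complexes placed HSPA1A and RNF121 at the ends. In cumulus cells the SD of HSPA1A was 1.83 on the log2 scale, wider than 99.6% of 12313 genes, whose median was 0.48. SQSTM1 (0.48), PSME4 (0.45) and RNF121 (0.42) were near that median. The place of HSPA1A is a description with no test, since these cumulus libraries may have led to its choice. Its cumulus levels fall into separate sets by run, and its SD spans those sets. The other places given here are descriptions too. In oocytes RNF121 had an SD of 0.14, narrower than all but 2.18% of 12753 genes (median 0.31), and SQSTM1 had 0.22. PSME4 (0.49) and HSPA1A (0.47) were wider than 82.9% and 81.1% of oocyte genes.

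The genes whose levels went most closely with each of the 4 over 19 libraries were found by Pearson's r over all genes kept, a description that shares the libraries and their depth. In cumulus cells HSPH1, HSPA6 and DNAJB1 ranked first for HSPA1A out of 12313 candidates, but no r is given, because its levels there fall into separate sets by run. RNF121 went with MAD1L1, DAPK3 and TRAF2 (0.86, 0.85 and 0.85), PSME4 with MARCHF7, FNIP1 and CSNK1G1 (0.88, 0.84 and 0.84), and SQSTM1 with JTB (0.85) and the unnamed ENSBTAG00000000990 (0.88). In oocytes PSME4 went with NLK, the unnamed ENSBTAG00000050748 and TAOK3 (0.89, 0.89 and 0.88), and HSPA1A with PARP1 (0.83) and the unnamed ENSBTAG00000005696 and ENSBTAG00000002260 (0.80 and 0.80). The oocyte genes nearest to RNF121 (r up to 0.73) and SQSTM1 (up to 0.78) had no name in the tables used.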

How the data were processed

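The authors aligned reads with HISAT2 2.1.0 to ARS-UCD1.2 and filtered out unmapped reads and those of low quality. They counted reads per Ensembl gene with featureCounts 1.6.0, with duplicates removed (strand setting not given in the sources used here), and deposited raw counts, 1 table per compartment. All 27607 identifiers of 38 libraries were read; 4934 have a symbol in the supplementary tables, the largest of which were shortened in the copies used, and 62 of 146 list genes were matched through them. Genes with CPM above 2 in at least 9 libraries (4 for late against earlier complexes) entered edgeR 4.0.16 quasi-likelihood fits (TMM, robust), with Benjamini-Hochberg adjustment over all genes and an FDR threshold of 0.01. DESeq2 1.42.0, other scalings and filters, the run and the library total in the model and leaving out complexes were alternatives; scripts were tested on simulated data. Single values used exact permutation tests, and correlations 100000 permutations. The genes and lists were chosen with earlier results of these data known. Named genes were the 4, up to 2 per list with the largest passing change in each comparison, a fixed set of relatives, and the 3 most alike per gene and compartment (1 of these, for SQSTM1 in cumulus cells, is not reported here, and the oocyte genes for RNF121 and SQSTM1 are given by their r only); DERL2, NPLOC4, CALCOCO2, WDFY3, HSPA4, PSMC4, ATG16L1, ATG9A, HSP90AA1, ZP3 and VWF were named outside that rule, after their values were seen. An oocyte and its cumulus cells share a complex number and come from 1 complex, per the labels; deviations from group means correlated by 0.08 (median of 19 pairs, range -0.02 to 0.22). Per-gene log2 levels used a pseudocount of 1. Counts limit precision; intervals cover the spread between complexes. No genome or sequence of the files' build was used, so positions are not given.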

Additional observations from a re-analysis of the deposited data

Results flagged for a closer look

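In 16 sets of libraries (4 genes, 2 compartments, 2 classes), 2 held a library whose gap to its neighbor was large against the whole range. Chance alone gives about 1 in 20 where the values come from 1 normal population. The HSPA1A levels in cumulus cells fall into separate sets by run, so that rate does not hold for them. SQSTM1 in BCB negative oocytes was highest in complex 65, at 1144.7 CPM, with a gap of 0.51 of the range, and without it the late minus earlier difference was -0.27 in place of -0.39. HSPA1A in BCB negative cumulus cells was highest in complex 90, at 4041.0 CPM, with a gap of 0.48 of the range, and without it that difference was 3.56 in place of 4.10.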

How the results depend on the processing

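RNF121, SQSTM1 and PSME4 kept their direction and their call between oocyte and cumulus cells under every alternative run. HSPA1A reversed there, to 0.13 with library totals alone, 0.52 with the replicate block by complex, 0.82 in BCB positive complexes and 0.61 within 65 to 74. The block changed the call of none of the 4 genes. Of genes whose class difference differed between compartments, 258 became 2 with the block, 643 (library totals), 758 (DESeq2) and 30 (CPM above 2 in every library), and the last filter gave 6735 genes between compartments.

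Between classes in oocytes, DESeq2 called 1 gene. RNF121 reversed to -0.054 with the run in the model and -0.040 without 86 to 91, and HSPA1A to 0.30 with the run in the model, 0.0068 with the library total, 0.59 within 65 to 74 and 0.30 without 86 to 91.

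Between classes in cumulus cells the 69 calls became 1704 (library totals), 365 (DESeq2), 164 (no filter), 216 (the paper's rule of a likelihood-ratio test without TMM and DESeq2 together), 115 (run), 2 (library total), 108 (without 86 to 91), 360 (FDR of 0.05) and 0 with run and library total together, chosen after seeing the data. HSPA1A reversed to 0.97, 1.65 and 1.09 (run, 65 to 74, without 86 to 91) and to 0.85 with both terms, SQSTM1 to -0.032 with the library total, and PSME4 to 0.020 with both terms. RNF121 was 0.16 with both.

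Late against earlier oocytes gave 6 genes, 0 with library totals or with the total in the model, 621 with DESeq2, and 0 to 259 without 1 replicate (259 without complex 6, 20 without complex 87, 0 without each of the others). HSPA1A ranged from 0.43 to 0.87 without 1 replicate, passing only without complex 6, the 1 earlier oocyte that reached into the late range, and was -0.022 with the total in the model. In cumulus cells the 0 calls became 6 (DESeq2) and 3 (no filter); HSPA1A, a description, was 4.05 with DESeq2 and ranged from 3.56 to 4.28 without 1 replicate; SQSTM1 reversed to -0.015, -0.013 and -0.012 (size factors, DESeq2, CPM above 2 in every library) and ranged from -0.18 to 0.20 without 1 replicate; RNF121 was 0.058 with library totals.

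Oocyte and own cumulus levels gave r for RNF121 of -0.0048 (BCB positive) and -0.26 (65 to 74), for PSME4 of -0.49 (BCB positive), -0.19 (BCB negative), -0.58 (86 to 91) and -0.0086 (library totals), for SQSTM1 of 0.0046 (BCB negative), and for HSPA1A of 0.45 (BCB positive), 0.60 (65 to 74) and 0.29 (86 to 91). Against the library total, RNF121 had 0.63 in oocytes (86 to 91) and, in cumulus cells, -0.39 (BCB negative), 0.49 (without the 2 farthest) and 0.71 (library totals); PSME4 in cumulus cells had 0.0071 and 0.035 (the BCB classes), -0.50 (without the 2 farthest) and 0.35 (library totals); SQSTM1 had -0.64 (BCB negative) and -0.53 (without the 2 farthest) in oocytes and 0.75, -0.11, -0.014 and 0.77 (BCB positive, BCB negative, 86 to 91, library totals) in cumulus cells; HSPA1A had -0.37, 0.79 and -0.079 in oocytes (BCB positive, BCB negative, 86 to 91) and -0.034, 0.78 and -0.032 in cumulus cells (BCB positive, BCB negative, without the 2 farthest). The cause of these moves was not tested. RNF121 rests on 17 to 212 counts in BCB negative cumulus libraries, which limits its precision.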
